A study of Solanum tuberosum with 9 samples.

Results

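Cytokinins are plant hormones, and 80 of the 24169 genes listed in either deposited comparison were taken as the cytokinin genes. The rule was the product name, which had to contain zeatin, cytokinin, adenylate isopentenyltransferase, histidine-containing phosphotransfer, or two-component response regulator ARR or ORR, and it used no measured value. The 80 genes comprised 39 zeatin glycosyltransferase loci, 16 response regulators, 10 LOG genes, 6 cytokinin oxidase/dehydrogenase genes (CKX), 5 synthesis genes and 4 phosphotransfer genes. Leaf RNA came from the diploid potato hybrid population 15-1, progeny of a diploid hybrid and the wild species S. chacoense, from pot-grown, untreated greenhouse plants at full anthesis. Bulk sample F' was from plants whose leaf extracts stimulated mustard growth (labelled hormesis), bulk sample B' from plants of low phytotoxicity and bulk sample A' from plants of high phytotoxicity. Plants of F', B' and A' alike had high glycoalkaloid contents. Each bulk pooled leaves of 3 individuals and had 3 libraries, 9 in all. The sources used here do not say how the 3 libraries of a bulk arose, so the p-values measure only the spread between these libraries, which may be technical, and the individuals behind a bulk cannot be told apart.

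Cytokinins are made from an adenosine nucleotide and an isoprenoid side chain by isopentenyltransferases (IPT). A hydroxylase turns the product into zeatin forms, and LOG enzymes release the active free base. Glycosyltransferases attach glucose or xylose to the side chain of zeatin, which gives storage forms protected from CKX, the enzymes that degrade cytokinins irreversibly. Signals pass from receptor histidine kinases through phosphotransfer proteins to response regulators. Type-B regulators are transcription factors, and type-A regulators are induced by cytokinin and dampen the response. In leaves, cytokinins are known for delaying senescence and for sustaining cell division in young blades. These roles were worked out largely in Arabidopsis and rice, and most of the potato products carry the ending -like, which marks a name given by similarity.

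Levels are given as normalized counts, which are reads per gene scaled to 1 common library size over the 9 libraries. Triplets of values follow library numbers 1, 2 and 3. Differences are log2 fold changes ± SE from edgeR's quasi-likelihood test with Benjamini-Hochberg adjustment over all genes tested (FDR), and a gene was called at an FDR under 0.05. Each library had 21199110 to 22517178 reads on genes. Pairs of libraries within a bulk differed by more than sampling noise, with a chi-square per gene between 6.86 and 37. F' library 2, B' library 3 and A' library 1 stood farthest from the others of their bulk. The leaf label was checked on 42 genes of small subunits of ribulose bisphosphate carboxylase, its activase and chlorophyll a-b binding proteins. Their summed level was 2480670 to 3008232 in F', 1760318 to 2125207 in B' and 3296690 to 4114812 in A'. Of the 42, 32 were lower in F' and 37 lower in B' than in A', 1 was higher in F' and 0 were higher in B' (edgeR). The sum for 3 sieve element occlusion genes (phloem) was 22.4 to 33.0 in F', 23.3 to 111.0 in B' and 125.4 to 153.4 in A', and 3 of 3 were lower in F' and 0 of 3 in B' (edgeR; 1 of 3 at an unadjusted p under 0.05, and 1 by DESeq2). The summed patatin genes (tuber) ranged over 2387 to 2964 in F', 3483 to 5242 in B' and 2996 to 3512 in A', those of flower and pollen over 4902 to 5068 in F', 4815 to 5011 in B' and 4856 to 5438 in A', and mitotic cyclins with histone H4 (dividing cells) over 960.1 to 1062 in F', 775.0 to 821.6 in B' and 1083 to 1152 in A'. Of 10 patatin genes tested, 0 were higher and 4 lower in F' than in A', and 2 higher and 1 lower in B'. For flower and pollen, 4 of 14 were higher and 5 lower in F', and 3 of 15 higher and 4 lower in B'. Of 7 dividing-cell genes, 1 was higher and 2 lower in F', and 0 higher and 3 lower in B' (edgeR). Of all genes tested, 17.5% were higher and 18.2% lower in F' than in A', and 16.4% and 16.5% in B'. In bulk tissue fewer cells of a type and less RNA per cell cannot be told apart, and the part of these shifts in the results on cytokinin genes was not tested.

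Between F' and A', 31 of the 62 cytokinin genes tested were called, 13 higher and 18 lower in F', against 35.6% of the 19132 genes tested (17.5% higher and 18.2% lower). Between B' and A', 32 of 60 were called, 11 higher and 21 lower in B', against 32.9% of 19059 genes (16.4% higher and 16.5% lower). Between F' and B', which share no library, 30 of 61 were called, 18 higher and 12 lower in F', against 30.0% of 19308 genes (13.7% higher and 16.3% lower). The libraries of both bulks did not overlap for 35 of the cytokinin genes tested in F' vs. A' (47.6% of all tested genes), 38 in B' vs. A' (47.5%) and 36 in F' vs. B' (44.3%). The contrasts F' vs. A' and B' vs. A' share the A' libraries, so their values are given side by side only. The median log2 fold change of the tested cytokinin genes was -0.08 for F' vs. A', -0.17 for B' vs. A' and 0.23 for F' vs. B', against 0.02, 0.02 and -0.00 over all genes tested. Every other count of 0 given here for a list was also 0 at an unadjusted p under 0.05 and by DESeq2, except where stated. The other members were too low to test or were not listed. Of the 80, 15 were tested in no comparison, and none of these 15 had more than 13.8 normalized counts in a library. In 1 or more comparisons 48 of the 80 were called. The same share of all genes was not counted, so the 48 cannot be set against a background. Leaving out single libraries kept 20 of the 31, 26 of the 32 and 24 of the 30 calls in every such fit.

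At a log2 fold change of at least 2 either way, 9 of 62 cytokinin genes tested were called in F' vs. A'. This was 14.5%, against 3.56% of all genes tested, and all 9 were zeatin glycosyltransferase loci. In B' vs. A' there were 11 of 60 (18.3%, against 3.41%), 9 of them zeatin glycosyltransferase loci and 2 LOG genes. In F' vs. B' there were 4 of 61 (6.56%, against 3.48%), all zeatin glycosyltransferase loci. None of the called synthesis, CKX, phosphotransfer or response regulator genes reached a log2 fold change of 2 either way in these 3 contrasts, as the plot of fold changes by role shows.

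**Figure D1:**
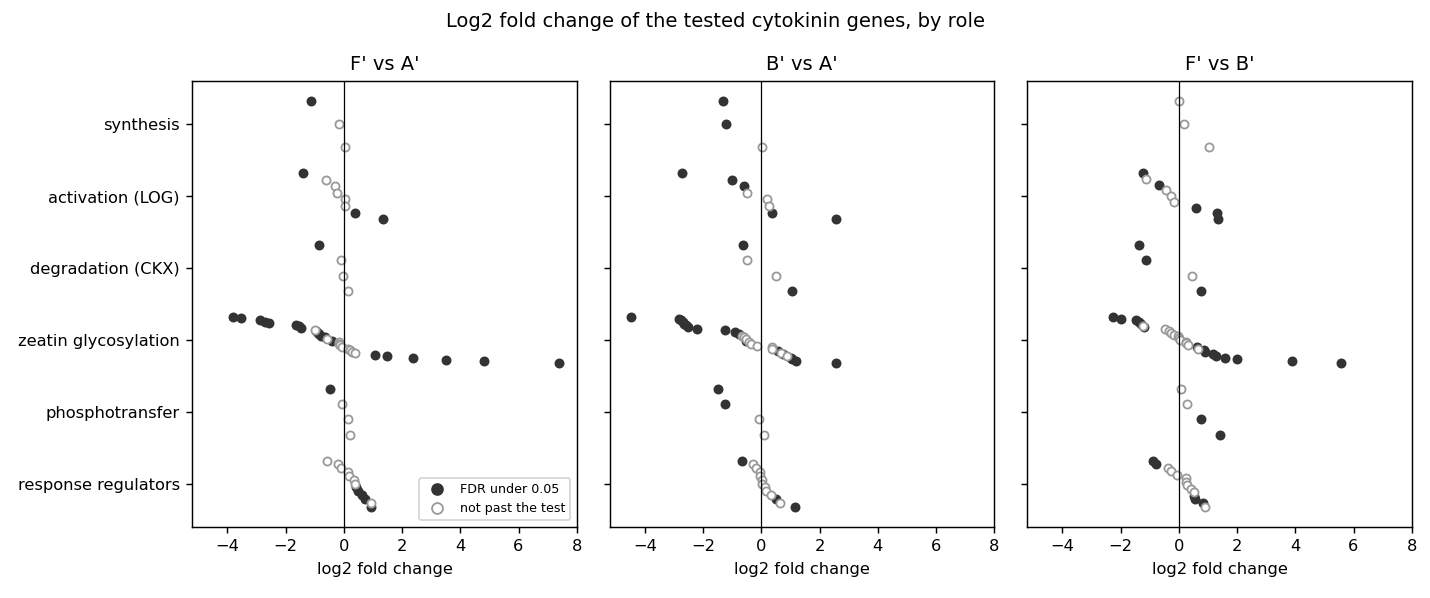
Log2 fold change (x axis) of every tested cytokinin gene, with 1 point per gene and roles down the y axis, for F' vs. A', B' vs. A' and F' vs. B'. Filled points have an FDR under 0.05 (edgeR); the zeatin glycosyltransferases span the widest range, from -3.80 to 7.39 in F' vs. A', and the 7.39 is a fitted value of a locus at 0 counts in A'.

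Zeatin glycosyltransferases were the largest group, with 27 loci named zeatin O-glucosyltransferase-like and 12 named zeatin O-xylosyltransferase-like. Of 30 tested in F' vs. A', 6 were higher in F' (against 17.5% of all genes tested) and 14 lower (46.7%, against 18.2%). The share of higher loci was thus near that of all genes and the share of lower loci above it. Of 28 tested in B' vs. A', 6 were higher in B' (21.4%, against 16.4%) and 12 lower (42.9%, against 16.5%). Of 27 tested in F' vs. B', 9 were higher in F' (33.3%, against 13.7%) and 6 lower (22.2%, against 16.3%). Summed over the 35 loci listed in both comparisons, the level was 6197 ± 430.1 in F', 5094 ± 677 in B' and 6950.1 ± 374 in A' (mean ± SD, n = 3). The sum holds loci that moved in opposite directions. Many of these loci lie side by side on a contig and may share sequence, so that reads could be split between them in counting. Values of single loci are therefore uncertain, and sums over all loci of 1 product name on a contig were fitted as well. Such a sum can also hold loci that lie far apart. Whether neighbouring loci are parts of the same gene was not tested, so a count of loci may exceed the count of genes.

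The loci with the largest increases in F' lie on 1 contig of chromosome 4. On it 9 zeatin glycosyltransferase loci stand between positions 418469 and 519269 (SolTub_3.0, positions on the contig), with 4 other listed genes between them. The deposited tables place 6 of the 9 on chromosome 4 and give no chromosome for the other three. LOC107061998, zeatin O-glucosyltransferase-like (518286 to 519269, + strand), had 132, 125 and 107 normalized counts in F', against 3.7, 2.8 and 0.862 in B' and 2.34, 5.44 and 4.6 in A'. All 3 F' libraries lay far above all libraries of both other bulks. The increase in F' was 28.5-fold over A' (log2 4.83 ± 0.32, FDR = 7.32e-08) and 47.5-fold over B' (log2 5.57 ± 0.36, FDR = 4.35e-06), and B' vs. A' was not tested because of low counts.

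LOC107061997, zeatin O-xylosyltransferase-like (496903 to 497391, + strand), was also highest in F'. It had 74.7, 67.0 and 92.7 normalized counts in F', against 5.55, 7.46 and 2.59 in B' and 10.5, 4.35 and 5.75 in A'. B' and A' overlapped and F' lay above both (log2 3.51 ± 0.34, FDR = 3.16e-06 for F' vs. A', 3.89 ± 0.36, FDR = 3.39e-05 for F' vs. B'). LOC107061996, zeatin O-glucosyltransferase-like (495765 to 496839, + strand), ends 63 bases before it. It had 25.2, 20.2 and 20.3 normalized counts in F' and 0 in each A' library, and it was not listed in the table that holds B'. Against a floor of 3 counts per library the level in F' was at least 6.42-fold higher (FDR = 5.59e-05, edgeR). LOC107061996 spans 1075 bases and LOC107061997 spans 489, and whether they are parts of the same gene was not tested.

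LOC102595911, zeatin O-glucosyltransferase-like (418469 to 420034, - strand), opens the group. Its level was 57.0, 43.6 and 42.5 normalized counts in F', against 13, 10.3 and 12.1 in B' and 10.5, 7.62 and 9.2 in A'. F' overlapped neither B' nor A'. The log2 fold change was 2.39 ± 0.34, FDR = 8.73e-05 against A' and 2.0 ± 0.30, FDR = 0.000719 against B', while B' vs. A' had 0.37 ± 0.37, FDR = 0.476 and was not called.

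Loci of the contig with more reads moved less. LOC107062006, zeatin O-xylosyltransferase-like (511892 to 513783, + strand), had the most reads of the 39 loci (not corrected for length), with 1409, 1699.6 and 1459.5 normalized counts in F', 990.0, 1095 and 864 in B' and 1427, 1173 and 1197 in A'. It was higher in F' than in B' (log2 0.62 ± 0.13, FDR = 0.00438) and not called in F' vs. A' (log2 0.28 ± 0.12, FDR = 0.0944) or B' vs. A' (log2 -0.36 ± 0.13, FDR = 0.0558). B' had the lowest 3 values, without overlap with F' or A'. Its neighbour LOC102598076, also zeatin O-xylosyltransferase-like, had 933, 911 and 1018 normalized counts in F', 547, 578 and 423 in B' and 1008, 815 and 824 in A', and was lower in B' (log2 -0.77 ± 0.14, FDR = 0.00188 for B' vs. A', 0.88 ± 0.14, FDR = 0.000874 for F' vs. B'). LOC102597760, of the same product name, was lower in B' than in A' (log2 -0.51 ± 0.14, FDR = 0.0148), and this call was lost without A' library 2 (FDR = 0.0659) or A' library 3 (FDR = 0.0749). LOC107061994 and LOC107061995 were not called in any comparison.

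Read together by product name, the O-glucosyltransferase loci of the contig were higher in F' than in A' (log2 2.1 ± 0.18, FDR = 1.1e-06) and than in B' (log2 1.65 ± 0.22, FDR = 0.00036). The sum for F' vs. A' also holds LOC107061996, which was not listed for B' and is absent from the sum for F' vs. B'. The summed O-xylosyltransferase loci, which LOC107062006 and LOC102598076 dominate, were not called in F' vs. A' (log2 0.21 ± 0.11, FDR = 0.175). In that sum the increase of LOC107061997 does not show. The summed xylosyl loci were lower in B' than in A' (log2 -0.50 ± 0.13, FDR = 0.0104) and higher in F' than in B' (log2 0.70 ± 0.12, FDR = 0.00151).

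**Figure D2:**
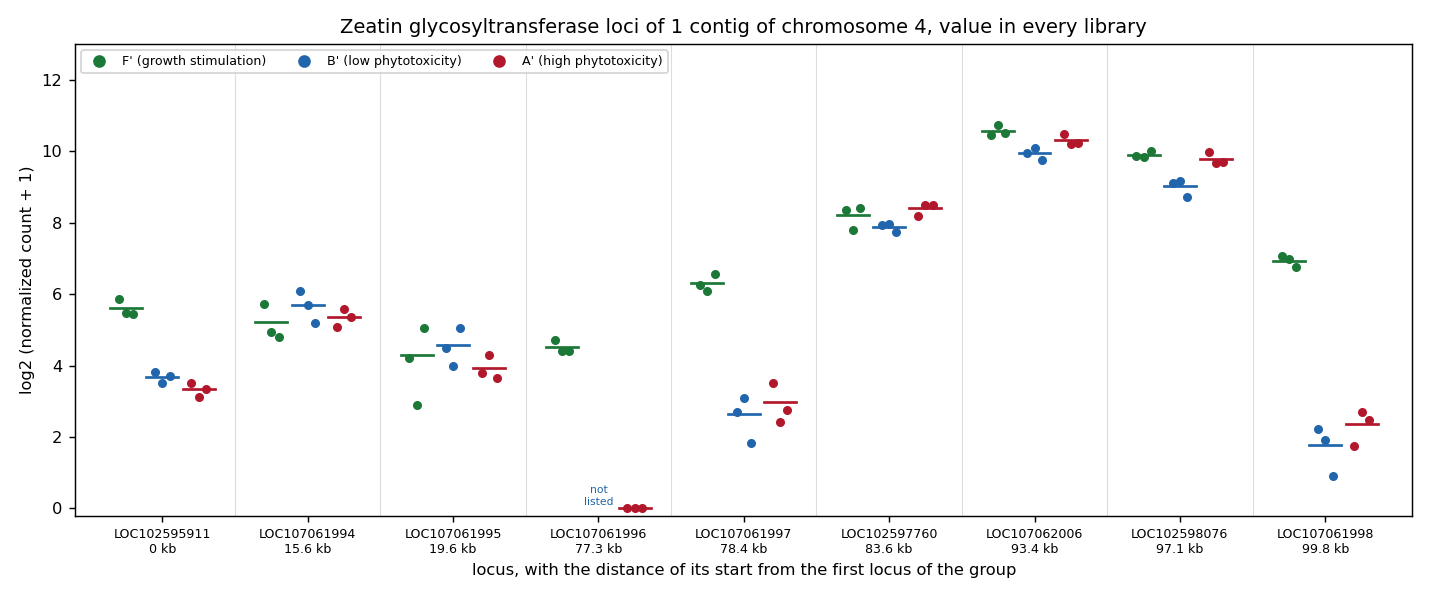
Level of the 9 zeatin glycosyltransferase loci of the chromosome 4 contig as log2(normalized count + 1) (y axis), in order of position (x axis, kb from the start of the first locus), with 1 point per library and a line at the mean of each bulk. F' libraries sit apart above B' and A' at LOC102595911, LOC107061997 and LOC107061998, and above A' at LOC107061996, which was not listed for B'.

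At other places in the genome loci were lower in both F' and B' than in A'. LOC107063221, zeatin O-glucosyltransferase-like, had 11.2, 8.51 and 9.66 normalized counts in F', 3.7, 7.46 and 4.31 in B' and 110.1, 134 and 105 in A'. It had the largest decrease in B', 22.0-fold (log2 -4.46 ± 0.31, FDR = 1.36e-06), and was 11.6-fold lower in F' (log2 -3.53 ± 0.27, FDR = 2.47e-07). The chromosome of this locus is not given, and F' vs. B' was not tested because of low counts.

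LOC107060850, zeatin O-glucosyltransferase-like (chromosome 5, contig positions 1504871 to 1506211, + strand), had 15.9, 13.8 and 8.69 normalized counts in F', 25.9, 45.7 and 19.0 in B' and 198, 179.6 and 167 in A'. The decrease was 13.9-fold in F' (log2 -3.80 ± 0.24, FDR = 4.54e-08) and 5.99-fold in B' (log2 -2.58 ± 0.27, FDR = 2.55e-05). F' vs. B' (log2 -1.23 ± 0.42, FDR = 0.05) lay at the threshold to 3 decimals and was not called by edgeR, whereas DESeq2 called it (FDR = 0.0486).

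Another contig of chromosome 5 carries 3 loci with like values between positions 1007519 and 1041136. In order of position they span 537, 717 and 564 bases, against 1341 bases for LOC107060850. LOC107062160, zeatin O-glucosyltransferase-like, had 18.7, 31.9 and 17.4 normalized counts in F', 25.0, 24.2 and 19.0 in B' and 177, 126 and 137 in A', with log2 -2.69 ± 0.26, FDR = 2.45e-06 for F' vs. A' and -2.68 ± 0.23, FDR = 5.92e-06 for B' vs. A'. LOC107062162, zeatin O-xylosyltransferase-like, had 4.67, 4.26 and 8.69 in F', 9.25, 7.46 and 4.31 in B' and 44.5, 43.5 and 47.2 in A', with log2 -2.89 ± 0.37, FDR = 3.69e-05 and -2.67 ± 0.34, FDR = 0.000123 in the same contrasts. LOC107062161, of the same product name and 115 bases before LOC107062162, had 7.47, 5.32 and 2.9 in F', 7.4, 6.53 and 2.59 in B' and 37.5, 29.4 and 28.8 in A', with log2 -2.56 ± 0.41, FDR = 0.000268 and -2.51 ± 0.40, FDR = 0.000562. F' and B' overlapped at each of the 3 loci, and both lay entirely below A'. LOC107062161 and LOC107062162 lie on the same strand, and whether they are parts of the same gene was not tested.

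A contig of chromosome 11 holds LOC107060907 and LOC102585941, both zeatin O-glucosyltransferase-like, within 19.7 kb. LOC102585941 had 352, 548 and 315 normalized counts in F', 179, 190.3 and 126 in B' and 1148, 1171 and 1069 in A'. LOC107060907 had 68.2, 119 and 86.0 in F', 49.0, 38.2 and 32.8 in B' and 345, 229 and 275 in A'. At both loci the 3 bulks were separate, with B' lowest, F' between and A' highest. For LOC102585941 the log2 fold change was -1.47 ± 0.17, FDR = 1.57e-05 in F' vs. A', -2.77 ± 0.16, FDR = 3.51e-07 in B' vs. A' and 1.29 ± 0.23, FDR = 0.00197 in F' vs. B'. For LOC107060907 it was -1.63 ± 0.20, FDR = 3.35e-05, -2.81 ± 0.21, FDR = 2.62e-06 and 1.17 ± 0.27, FDR = 0.00824 in the same contrasts, and the sum of both loci gave log2 -1.50 ± 0.17, FDR = 1.13e-05 for F' vs. A' and -2.78 ± 0.15, FDR = 2.77e-07 for B' vs. A'.

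On a contig of chromosome 10, loci of 1 product name moved in unlike ways. LOC102592693, zeatin O-glucosyltransferase-like (249474 to 251308, - strand), was lower in F' and in B', with 113, 179 and 129 normalized counts in F', 118, 84.9 and 64.7 in B' and 425, 409 and 403 in A'. The log2 fold change was -1.55 ± 0.16, FDR = 4.93e-06 for F' vs. A' and -2.21 ± 0.19, FDR = 6.54e-06 for B' vs. A'. LOC102587175, zeatin O-glucosyltransferase-like (776126 to 777666, - strand), was higher in B', with 75.6, 95.8 and 77.3 in F', 249, 209.8 and 147 in B' and 64.4, 114 and 84.0 in A'. B' lay above both other bulks there (log2 1.20 ± 0.24, FDR = 0.00268 for B' vs. A', -1.29 ± 0.22, FDR = 0.00139 for F' vs. B'). With the glucosyl loci of this contig summed, B' vs. A' had the opposite sign and was not called (log2 -0.33 ± 0.16, FDR = 0.136).

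LOC102581540, zeatin O-glucosyltransferase-like (220503 to 222099, - strand), lies on the same contig. It had 64.4, 99.0 and 86.9 normalized counts in F', 256, 217 and 162 in B' and 166, 123 and 139 in A'. It was lower in F' than in A' (log2 -0.77 ± 0.20, FDR = 0.00762) and than in B' (log2 -1.36 ± 0.22, FDR = 0.00114). B' was called higher than A' (log2 0.58 ± 0.19, FDR = 0.0374), although 1 B' library lay below the highest A' library. That call was lost without B' library 1 (log2 0.42, FDR = 0.127), B' library 2 (0.55, 0.0927), A' library 2 (0.49, 0.136) or A' library 3 (0.56, 0.116), and in the summed loci it had the opposite sign.

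LOC102583768, zeatin O-glucosyltransferase-like on chromosome 3, had 52.3, 55.3 and 37.7 normalized counts in F', 231, 207 and 135 in B' and 73.8, 109.9 and 96.6 in A'. The bulks did not overlap, with F' lowest, A' between and B' highest. The log2 fold change was -0.94 ± 0.23, FDR = 0.00621 for F' vs. A', 1.03 ± 0.23, FDR = 0.0044 for B' vs. A' and -1.99 ± 0.24, FDR = 0.000206 for F' vs. B'. LOC102587493, a further zeatin O-glucosyltransferase-like locus described after its values were seen, kept the same order with 424, 491 and 412 in F', 1147, 1071 and 793 in B' and 615, 576 and 601 in A' (log2 -0.42 ± 0.12, FDR = 0.0117, 0.76 ± 0.14, FDR = 0.00192 and -1.19 ± 0.15, FDR = 0.000272). Its call in F' vs. A' was lost without F' library 1 (log2 -0.39, FDR = 0.0542) or F' library 3 (-0.38, 0.056).

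A further 3 O-xylosyltransferase-like loci stood out in other ways. LOC107061124 was higher in F' alone, with 685, 837 and 723 normalized counts in F', 254, 253 and 229 in B' and 306, 250.4 and 262 in A'. B' and A' overlapped and F' lay above both (log2 1.47 ± 0.13, FDR = 1.11e-06 for F' vs. A', -0.15 ± 0.13, FDR = 0.433 for B' vs. A', 1.60 ± 0.12, FDR = 1.02e-05 for F' vs. B'). A gene on the opposite strand, LOC107061137, overlaps it, and the strand setting of the counting is not given in the sources used here, so reads of the pair cannot be told apart.

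LOC102590920 was higher in both F' and B', with 553, 655 and 636 normalized counts in F', 615, 606 and 589 in B' and 299, 311 and 275 in A'. The log2 fold change was 1.07 ± 0.12, FDR = 1.21e-05 for F' vs. A' and 1.04 ± 0.12, FDR = 4.07e-05 for B' vs. A', and F' and B' overlapped. Its neighbour LOC102604783, of the same product name and 23 bases away on the opposite strand, had 44.8, 50.0 and 60.9 in F', 27.8, 29.8 and 25.9 in B' and 48.0, 43.5 and 42.6 in A' and was called higher in F' than in B' (log2 0.89 ± 0.25, FDR = 0.0224). The call was lost without F' library 3 (log2 0.76, FDR = 0.1), B' library 1 (0.89, 0.0603) or B' library 2 (0.94, 0.0652).

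The O-xylosyltransferase-like locus LOC102580297 was higher in B', with 8.41, 4.26 and 12.6 in F', 38.9, 33.6 and 49.2 in B' and 1.17, 12 and 6.9 in A' (log2 2.57 ± 0.48, FDR = 0.00165 for B' vs. A', -2.25 ± 0.40, FDR = 0.00187 for F' vs. B'). It was not tested in F' vs. A', and it too overlaps a gene of the opposite strand. The O-glucosyltransferase-like locus LOC107059376 was lower in F' than in B', with 14, 10.6 and 17.4 in F', 45.3, 45.7 and 25.0 in B' and 12.9, 21.8 and 28.8 in A' (log2 -1.46 ± 0.36, FDR = 0.0123). It lost that call without B' library 2 (log2 -1.32, FDR = 0.0584).

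**Figure D3:**
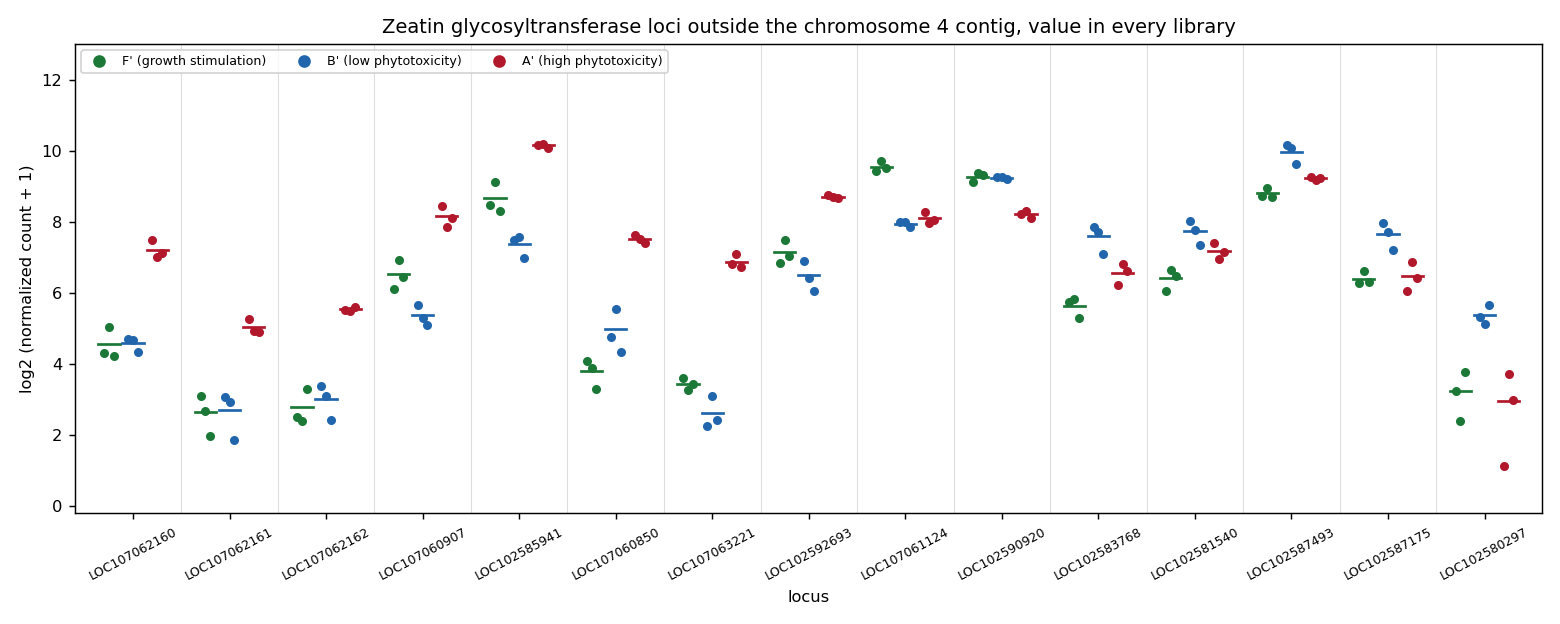
Level of zeatin glycosyltransferase loci outside the chromosome 4 contig as log2(normalized count + 1) (y axis), with 1 point per library and a line at the mean of each bulk. The first 8 loci (x axis, LOC107062160 to LOC102592693) have A' highest, and in LOC102583768, LOC102581540 and LOC102587493 the mean of F' is lowest and that of B' highest.

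Of 5 synthesis genes, 3 were tested. LOC102579012, adenylate isopentenyltransferase 3, chloroplastic-like, had 48.6, 37.2 and 71.5 normalized counts in F', 40.7, 44.8 and 52.6 in B' and 129, 117 and 106 in A'. F' and B' overlapped and both lay below A' (log2 -1.14 ± 0.23, FDR = 0.0017 for F' vs. A', -1.33 ± 0.20, FDR = 0.00035 for B' vs. A'). LOC102599418, adenylate isopentenyltransferase 5, gave 145, 148 and 167 in F', 171, 173 and 115 in B' and 128, 161 and 161 in A', and it was called in none of the comparisons (log2 0.04 ± 0.16, FDR = 0.856 for F' vs. A', 0.03 ± 0.19, FDR = 0.909 for B' vs. A'). LOC102603015, cytokinin hydroxylase-like, stands for the step from isopentenyladenine forms to zeatin forms. It had 26.1, 21.3 and 15.5 in F', 6.48, 11.2 and 12.9 in B' and 15.2, 29.4 and 26.5 in A', and was called lower in B' than in A' (log2 -1.20 ± 0.39, FDR = 0.0352). Without B' library 1, B' library 2, A' library 2 or A' library 3 that call was lost (FDR = 0.0754 to 0.144), and DESeq2 did not make it (FDR = 0.0624).

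LOG genes activate cytokinins in a single step. Of 8 tested, 2 were higher and 1 lower in F' than in A', a share of 37.5% called that lies near the 35.6% of all genes. In B' vs. A', 2 of 8 were higher and 3 lower in B' (62.5% called, against 32.9%). Of 9 tested in F' vs. B', 3 were higher and 2 lower in F' (55.6%, against 30.0%). LOC102581470 (LOG3-like, chromosome 10) had 441, 464 and 469 normalized counts in F', 142, 191 and 215 in B' and 1312, 1144 and 1200.0 in A'. The 3 bulks were separate, with B' 6.63-fold lower (log2 -2.73 ± 0.16, FDR = 3.93e-07) and F' 2.64-fold lower (log2 -1.40 ± 0.11, FDR = 5.24e-07) than A'. F' was higher than B' by log2 1.32 ± 0.15, FDR = 0.000147.

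The LOG gene with the most reads was LOC102584678 (LOG1, chromosome 11), with 2453, 2364 and 2733 normalized counts in F', 856, 959 and 1132 in B' and 2158, 1828 and 1882 in A'. All B' values lay below all F' and A' values (log2 -0.99 ± 0.13, FDR = 0.000194 for B' vs. A', 1.35 ± 0.13, FDR = 4.23e-05 for F' vs. B'). F' was called higher than A' (log2 0.38 ± 0.12, FDR = 0.0238), a call lost without F' library 1 (log2 0.39, FDR = 0.0577), F' library 3 (0.31, 0.119), A' library 2 (0.32, 0.0987) or A' library 3 (0.35, 0.109). LOC102598045 (LOG1-like) had the reverse order of LOG3-like, with 20.5, 40.4 and 42.5 in F', 56.4, 80.2 and 106 in B' and 10.5, 13.1 and 17.3 in A'. B' was highest and A' lowest without overlap (log2 1.34 ± 0.38, FDR = 0.0135 for F' vs. A', 2.57 ± 0.33, FDR = 0.000119 for B' vs. A', -1.24 ± 0.33, FDR = 0.0166 for F' vs. B'). The call of F' vs. A' was lost without F' library 3 (log2 1.15, FDR = 0.0618) and that of F' vs. B' without F' library 1 (-0.97, 0.0591).

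A further LOG1-like gene, LOC102592408 (chromosome 4), had 353, 407 and 367 normalized counts in F', 581, 599 and 627 in B' and 461, 458 and 483 in A'. It was lower in F' than in B' (log2 -0.69 ± 0.11, FDR = 0.000999). Its call in B' vs. A' (log2 0.37 ± 0.11, FDR = 0.023) was lost without B' library 2 (FDR = 0.0799), A' library 2 (0.0701) or A' library 3 (0.0621). Summed over the 9 LOG genes listed in both comparisons, the level was 3999.7 ± 229 in F', 2398 ± 306 in B' and 4309 ± 294 in A' (mean ± SD, n = 3). In B' all 3 sums lay below those of F' and A', and LOC102584678 made up 62.9% of these reads in F', 40.9% in B' and 45.4% in A'.

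CKX4 had the most reads of the CKX genes, with 724, 550.2 and 714 normalized counts in F', 1359, 1445 and 1551 in B' and 705, 733 and 679.9 in A'. B' lay above both other bulks, which overlapped (log2 1.05 ± 0.11, FDR = 3.38e-05 for B' vs. A', -1.14 ± 0.13, FDR = 0.000138 for F' vs. B', -0.08 ± 0.13, FDR = 0.67 for F' vs. A'). CKX5 was lower in B', with 432, 402 and 470.4 in F', 238, 281 and 244 in B' and 413, 388 and 390.0 in A' (log2 -0.64 ± 0.12, FDR = 0.00234 for B' vs. A', 0.77 ± 0.12, FDR = 0.00115 for F' vs. B').

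LOC102577758, the precursor of cytokinin oxidase/dehydrogenase 1, was lowest in F'. Its level was 21.5, 26.6 and 33.8 normalized counts in F', 79.6, 74.6 and 57.8 in B' and 44.5, 45.7 and 59.8 in A' (log2 -0.86 ± 0.28, FDR = 0.0276 for F' vs. A', -1.38 ± 0.26, FDR = 0.00305 for F' vs. B'). The call against A' was lost without F' library 1 (log2 -0.71, FDR = 0.106) or A' library 3 (-0.71, 0.135). CKX3 was called in no comparison, and the other two CKX genes were too low to test. Summed over all 6, CKX genes had 1231 ± 127 normalized counts in F', 1850.0 ± 98.3 in B' and 1258 ± 31.2 in A' (mean ± SD, n = 3), with CKX4 at 53.8% of these reads in F', 78.5% in B' and 56.1% in A'.

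**Figure D4:**
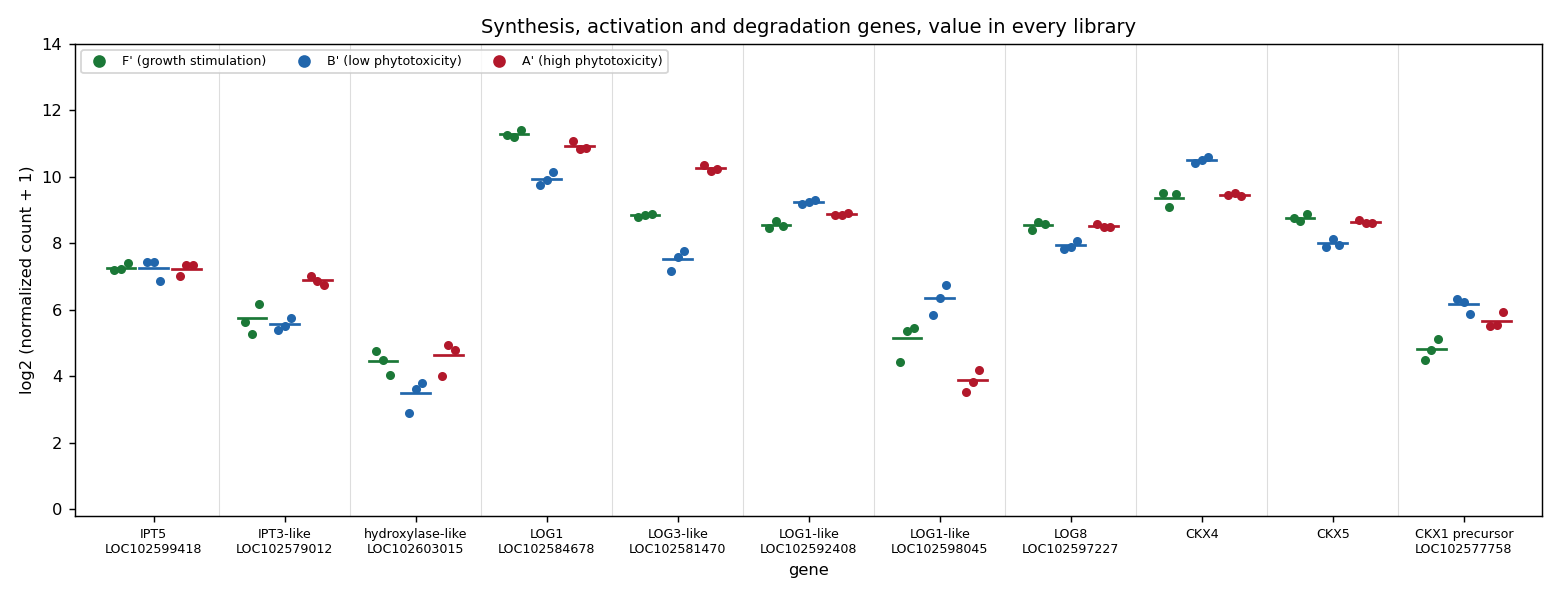
Level of synthesis, LOG and CKX genes as log2(normalized count + 1) (y axis), by gene (x axis), with 1 point per library and a line at the mean of each bulk. B' is the lowest bulk for LOG1 (LOC102584678) and LOG3-like and the highest for CKX4.

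Of the 4 phosphotransfer genes, which carry the phosphate from receptor to regulator, 1 was lower in F' than in A' (18.2% of all genes tested). In B' vs. A', 2 were lower in B' (16.5% of all genes). In both contrasts 0 were higher, against 17.5% of all genes in F' vs. A' and 16.4% in B' vs. A'. In F' vs. B', 2 were higher (13.7% of all genes) and 0 lower (16.3%) in F'. With only 4 genes, the counts of 0 are near these shares. LOC102584884, histidine-containing phosphotransfer protein 4-like (chromosome 11), had 344, 439.5 and 443 normalized counts in F', 126, 158 and 177 in B' and 466, 394 and 439.5 in A'. B' was 2.8-fold lower than A' (log2 -1.49 ± 0.15, FDR = 2.41e-05), and F' was higher than B' (log2 1.40 ± 0.16, FDR = 0.000138). F' and A' overlapped (log2 -0.07 ± 0.13, FDR = 0.703).

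LOC102589200 is a pseudo phosphotransfer protein 2-like gene (chromosome 8). In Arabidopsis, the pseudo-type protein AHP6 lacks the histidine that takes the phosphate and inhibits cytokinin signalling. The potato gene had 219.5, 234 and 281 normalized counts in F', 106, 146 and 180.3 in B' and 359.5, 298 and 364 in A', with no overlap between bulks. The log2 fold change was -0.46 ± 0.14, FDR = 0.0192 for F' vs. A', -1.23 ± 0.19, FDR = 0.000418 for B' vs. A' and 0.75 ± 0.20, FDR = 0.0157 for F' vs. B'. The call of F' vs. A' was lost without F' library 1 (log2 -0.39, FDR = 0.082) or A' library 3 (-0.41, 0.086), and that of F' vs. B' without F' library 3 (0.64, 0.069). The gene of the role with the most reads, LOC102590747 (phosphotransfer protein 1), had 1174, 1195 and 1486 in F', 909, 1015 and 1229 in B' and 1247, 1110.3 and 1015 in A', and it was called in none of the 3 comparisons.

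Among the 16 response regulators, 5 of 13 tested were higher and 0 lower in F' than in A'. The share called, 38.5%, was near the 35.6% of all genes, of which 17.5% were higher. In B' vs. A', 2 of 13 were higher and 1 lower in B' (23.1% called, below the 32.9% of all genes), and in F' vs. B', 3 of 14 were higher and 2 lower in F' (35.7%, against 30.0%). The median log2 fold change of the 13 tested in F' vs. A' was 0.4, against 0.02 over all genes. By names known from Arabidopsis and rice, a split made after the values were seen, 9 loci are type B and 7 type A. Of 8 type-B loci tested, 4 were higher in F' than in A', 1 was higher in B' than in A', and 0 were lower in either contrast. Of all genes tested, 17.5% were higher and 18.2% lower in F' vs. A', and 16.4% higher and 16.5% lower in B' vs. A'. With only 8 loci, 0 lower and 1 higher in B' are near these shares. Of 5 type-A loci tested, 1 was higher and 0 lower in F' than in A', and 1 was higher and 1 lower in B' than in A'. The median log2 fold change in F' vs. A' was 0.45 for the type-B and 0.34 for the type-A loci tested.

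LOC102593308 (ARR11, type B, chromosome 5) had 626, 722 and 629.8 normalized counts in F', 471, 434 and 425 in B' and 363, 498 and 438 in A'. F' lay above both other bulks (log2 0.62 ± 0.13, FDR = 0.0025 for F' vs. A', 0.56 ± 0.11, FDR = 0.00394 for F' vs. B'), and B' and A' overlapped. LOC102598455 (ORR24-like, type B, chromosome 7) had 252, 263 and 294 in F', 267, 215 and 203 in B' and 164, 157 and 169 in A'. Both F' (log2 0.74 ± 0.13, FDR = 0.000718) and B' (log2 0.49 ± 0.15, FDR = 0.0277) were called higher than A', and the call of B' was lost on leaving out any of 5 libraries, B' library 1 (log2 0.36, FDR = 0.121), B' library 2 (0.53, 0.0554), A' library 1 (0.5, 0.0579), A' library 2 (0.47, 0.0888) or A' library 3 (0.52, 0.0737).

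The other two type-B regulators called, taken up after their values were seen, were LOC102587717 and LOC102578736. LOC102587717 (ORR24-like) had 705, 867 and 801 normalized counts in F', 551, 557 and 537 in B' and 473, 669 and 547 in A' (log2 0.50 ± 0.14, FDR = 0.0121 for F' vs. A', 0.52 ± 0.11, FDR = 0.00634 for F' vs. B'), and without A' library 3 the call against A' was lost (log2 0.48, FDR = 0.0554). LOC102578736 (ARR2-like) had 614, 651 and 602 in F', 581, 502 and 470.1 in B' and 392, 523 and 499 in A' (log2 0.41 ± 0.13, FDR = 0.0223 for F' vs. A'). It lost the call without F' library 1 (log2 0.42, FDR = 0.0521), F' library 2 (0.36, 0.0511) or A' library 1 (0.29, 0.071). At both loci A' library 1 was the lowest of the A' values.

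Type-A regulators, which cytokinin induces, did not move as 1 group. LOC102590336 (ORR10-like, chromosome 2) had 328, 234 and 438 normalized counts in F', 501, 534 and 678 in B' and 251, 282 and 232 in A'. B' was 2.25-fold higher than A' (log2 1.17 ± 0.15, FDR = 0.000115) and above all F' values (log2 -0.78 ± 0.21, FDR = 0.0178), and the F' vs. B' call was lost without F' library 1 (log2 -0.77, FDR = 0.0639). LOC102602758 (ARR5-like, chromosome 5), the regulator with the most reads, was lower in B', with 1086, 1373 and 1257 in F', 678, 769 and 609.8 in B' and 1224, 966 and 1125 in A'. The log2 fold change was -0.68 ± 0.13, FDR = 0.00231 for B' vs. A' and 0.84 ± 0.13, FDR = 0.000882 for F' vs. B'.

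LOC102605280 (ARR5) was lower in F' than in B', with 38.3, 28.7 and 31.9 normalized counts in F', 53.7, 58.8 and 70.7 in B' and 38.6, 59.9 and 48.3 in A' (log2 -0.89 ± 0.24, FDR = 0.0188). The call was lost without F' library 3 (log2 -0.86, FDR = 0.0675) or B' library 2 (-0.92, 0.0592). LOC102599826 (ORR9) had 49.5, 31.9 and 70.5 in F', 25.0, 23.3 and 31.9 in B' and 23.4, 25.0 and 31.1 in A' and was called higher in F' than in A' (log2 0.95 ± 0.32, FDR = 0.0321). That call was lost on leaving out any library but F' library 2, with log2 values between 0.63 (without F' library 3, FDR = 0.189) and 1.07 (without A' library 3, FDR = 0.0546), through 0.96 without F' library 1, 0.86 without A' library 1 and 0.9 without A' library 2.

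**Figure D5:**
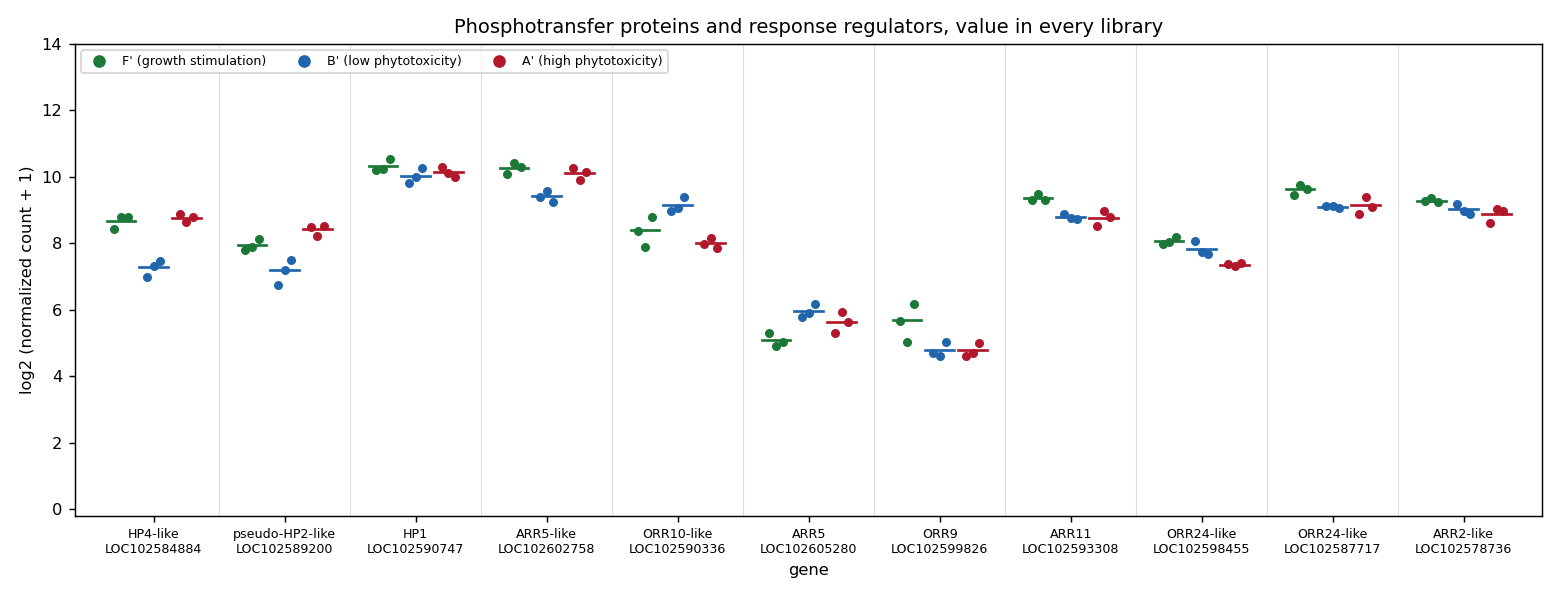
Level of phosphotransfer genes and response regulators as log2(normalized count + 1) (y axis), by gene (x axis), with 1 point per library and a line at the mean of each bulk. HP4-like, pseudo-HP2-like and ARR5-like are lowest in B', ORR10-like is highest in B', and ARR11 is highest in F'.

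Other genes of the pathway, outside the rule, were taken from a list of product words, and their counts stand beside the same shares of all genes tested (35.6% called in F' vs. A', 32.9% in B' vs. A' and 30.0% in F' vs. B'). Of 3 receptor genes, 1 was higher in F' than in A' (LOC102591086, histidine kinase 2, log2 0.55 ± 0.19, FDR = 0.0371). Another 1 was higher in B' than in A' (LOC102587294, histidine kinase 3, log2 0.65 ± 0.16, FDR = 0.0105), with 0 lower in either contrast. LOC102587294 was lower in F' than in B' (log2 -0.47 ± 0.12, FDR = 0.012). In F' vs. B', edgeR called 0 of the 3 higher, against 1 by DESeq2 and 1 at an unadjusted p under 0.05. LOC102591086 had 826, 486 and 602 normalized counts in F' and 337, 515 and 471 in A', and F' library 2, which stood apart in its bulk, lay below A' library 2. Purine permeases, some of which carry cytokinin bases across membranes in Arabidopsis and rice, were 15 with 14 tested. Of these, 5 were higher and 5 lower in F' than in A', 3 higher and 5 lower in B' than in A', and 5 higher and 2 lower in F' than in B', against 17.5% higher and 18.2% lower, 16.4% and 16.5%, and 13.7% and 16.3% of all genes in these contrasts. LOC102581812 (purine permease 1-like) had 417, 409.7 and 452 normalized counts in F', 113, 134 and 122 in B' and 2329, 1979 and 1781 in A' (log2 -2.24 ± 0.13, FDR = 2.19e-08 for F' vs. A', -4.04 ± 0.15, FDR = 2.62e-08 for B' vs. A'). LOC102581289 (purine permease 3-like) had 1259.8, 1733 and 1504 in F', 373, 440.2 and 367 in B' and 573, 545 and 573 in A' (log2 1.42 ± 0.13, FDR = 1.73e-06 and -0.51 ± 0.12, FDR = 0.00708 in the same contrasts). Both were separate in all 3 bulks, with B' lowest.

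The single adenosine kinase gene, LOC102577684, whose product can convert cytokinin ribosides to nucleotides, was lower in F' (log2 -1.59 ± 0.16, FDR = 4.23e-06) and in B' (log2 -0.80 ± 0.14, FDR = 0.00138) than in A'. Of 2 genes named ABC transporter G family member 14, a cytokinin exporter of root-to-shoot transport in Arabidopsis, 0 were called in B' vs. A'. LOC102600750 was lower in F' than in A' (log2 -1.79 ± 0.26, FDR = 9.6e-05) and than in B' (log2 -1.77 ± 0.26, FDR = 0.000613). The other gene, LOC102579805, was higher in F' than in B' (log2 0.67 ± 0.22, FDR = 0.0429). It was not called in F' vs. A' (log2 0.33 ± 0.18, FDR = 0.176). Of 2 adenine phosphoribosyltransferase genes, 0 were called in F' vs. A' and 1 was lower in B' than in A'. None of the 3 genes for tRNA dimethylallyl transferases, a source of cis-zeatin, passed the test in any comparison. Of 4 genes named ethylene-responsive transcription factor CRF, 0 of 3 tested were called in F' vs. A' and 0 of 4 in B' vs. A', and 1 of 4 was lower in F' than in B' by edgeR and 0 by DESeq2. Both genes named PTI6 were higher in B' than in A', and 0 of 2 were called in F' vs. A' by edgeR or DESeq2 (1 at an unadjusted p under 0.05). PTI6 is a transcription factor of the ERF family, as are the CRF proteins. Of 9 genes named two-component response regulator-like APRR or PRR, some of which work in the circadian clock in Arabidopsis, 8 were tested. In F' vs. A', 2 were higher in F' (1 by DESeq2) and 3 lower, and 1 was lower in B' than in A', which is below the 32.9% of all genes called there.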

How the data were processed

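Leaf mRNA was made into directional libraries and sequenced as paired-end reads. The counts were deposited by the authors as raw reads per gene for each library; per the labels, the submitters' processing notes name Bowtie2 2.1.0, TopHat2 2.0.9 and DESeq2. The counting tool and its strand setting are not given in the sources used here. The other columns hold the authors' own comparisons (fold changes, p-values, normalized counts) and were not used. No gene had fewer than 5 counts over the 6 libraries of its comparison, so lower genes appear to have been left out before deposition. Coordinates are those of the deposited tables, and all 80 cytokinin genes have the same span in RefSeq SolTub_3.0. The assembly is of another potato line, so reads of alleles that differ from it may be counted incompletely or at a similar locus, which was not tested.

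Each comparison was fitted with edgeR 4.0.16 (R 4.3.3) on the whole table with filterByExpr, TMM scaling, the robust quasi-likelihood test and Benjamini-Hochberg adjustment. F' vs. B' used the 22988 genes listed in both comparisons. SEs are the log2 fold change over the root of F. Normalized counts were scaled to a mean effective library size of 22109303 over the 9 libraries. The floor was 3 counts per library. With 3 libraries against 3, an exact two-sided permutation test cannot give a p-value below 0.1, so none was run. The pipeline was tested on simulated data.

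The members, lists and roles were chosen with earlier results of these data known. Genes named with the values of every library were the 4 zeatin glycosyltransferases, or 2 members of another role, with the largest log2 fold change on either side of a comparison, among those called, without overlap and with a mean of at least 20 normalized counts in either bulk. The member with the most reads in each role, members at the floor in 1 bulk and some neighbours of the same product name were added. Marker and pathway lists were taken by product words. The alternatives were DESeq2 1.42.0, upper-quartile scaling, no filter, a block for the replicate number and 1 joint fit of the 9 libraries. Further alternatives were an FDR under 0.01 and a test against a log2 fold change of 1 (glmTreat). Each library was also left out in turn, and all loci of 1 product name on a contig were summed.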

Additional observations from a re-analysis of the deposited data

Results flagged for a closer look

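In 4 genes F' and B' were called on opposite sides of A'. How many of all tested genes did the same was not counted, so the 4 cannot be set against a background. The difference between F' and B' was also called in each by edgeR's quasi-likelihood test. That call is no separate support, because it uses the same F' and B' libraries by which the 4 genes were picked. The 2 contrasts against A' share the A' libraries. LOC102584678 (LOG1) was higher in F' and lower in B' than in A', with a log2 fold change of 1.35 for F' vs. B' (FDR = 4.23e-05). The zeatin O-glucosyltransferase-like loci LOC102583768, LOC102581540 and LOC102587493 were lower in F' and higher in B' than in A'. Their log2 fold changes for F' vs. B' were -1.99 for LOC102583768 (FDR = 0.000206), -1.36 for LOC102581540 (FDR = 0.00114) and -1.19 for LOC102587493 (FDR = 0.000272). LOC102583768 kept both calls against A' when any single library was left out, whereas LOC102584678 and LOC102587493 lost that of F' vs. A' and LOC102581540 that of B' vs. A'. In LOC102583768, LOC102587493 and LOC102584678 the 3 bulks did not overlap, and in LOC102581540 B' and A' did. Bulks of 3 libraries are too small to be tested for outlying libraries.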

How the results depend on the processing

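The counts of called cytokinin genes (31 in F' vs. A', 32 in B' vs. A' and 30 in F' vs. B') were 31, 32 and 31 with DESeq2, 31, 33 and 30 with upper-quartile scaling, 31, 35 and 30 without a filter and 30, 35 and 33 in the joint fit. A test against a log2 fold change of 1 called 14, 12 and 7. An FDR under 0.01 left 20, 25 and 24. Leaving out 1 library gave 23 to 35, 28 to 35 and 27 to 33. With the replicate number as a block, 30, 30 and 35 were called. Libraries share only a number, and deviations of same-numbered libraries were correlated at r = -0.252 to 0.338, so they were not taken as pairs. Sums took all loci of 1 product name on a contig. The sum with LOC102581540 and LOC102587175 was negative in B' vs. A' (log2 -0.33, FDR = 0.136). It also holds LOC102592693 (log2 -2.21), which lies 524817 bases before LOC102587175. The sum with LOC107061997 was not called in F' vs. A' (log2 0.21, FDR = 0.175). Each sum holds more loci than the gene. LOC107062006 was called lower in B' than in A' with DESeq2 (FDR = 0.047), upper-quartile scaling (FDR = 0.0496) and the joint fit (FDR = 0.0416). Low counts limited the test, and 15 of 80 genes entered none.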
